A study of Homo sapiens with 6 samples.

Results

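The genes described here control how cells sense and export cholesterol. They are the liver X receptors NR1H2 and NR1H3, the efflux transporters ABCA1 and ABCG1, the ubiquitin ligase MYLIP, and the apolipoproteins APOE and APOC1. They were chosen by gene symbol, and all 7 were found among the 33496 genes listed for each library. The 6 RNA-seq libraries were made from ARPE-19 cells, a human retinal pigment epithelial (RPE) line labelled as wild type. Every culture received erastin (5 μM for 24 h), an inhibitor of cystine import that triggers ferroptosis, the iron-dependent form of cell death by lipid peroxidation. Erastin was given alone for 3 libraries (Era), and vitamin K1 (VK1, 10 μM) was added 1 h before it for the other 3 (Era+VK). Untreated cells were not analysed here, so each comparison below asks what VK1 pretreatment changed in erastin-treated cells. The labels do not say whether the libraries of a group came from separate cultures, so a p-value covers only the spread between these libraries, which may be technical.

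Liver X receptors (LXRs) are nuclear receptors that are activated by oxysterols, the oxidised forms of cholesterol. They bind DNA as a dimer with a retinoid X receptor (RXR), hold corepressors at target genes without ligand and recruit coactivators with it. Their best known targets export cholesterol (ABCA1, ABCG1), carry it outside the cell (APOE, APOC1) or lower its uptake (MYLIP). RPE takes up lipid from photoreceptor outer segments and releases lipoprotein particles, and apolipoprotein E is a known component of the deposits that form beneath it with age.

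Expression was measured as FPKM, fragments per kilobase of exon relative to all mapped fragments, deposited with 2 decimals. FPKM allows genes of different length to be compared in a library. The depth of each library is unknown. Between 11924 and 12027 genes per library reached 1 FPKM. The test was limma on log2(FPKM + 1), a scale that understates the change of low genes, for the 11981 genes whose mean reached 1 FPKM, with Benjamini-Hochberg adjustment over all of them and a threshold of 0.05. By that test 0.618% of the genes (74 of 11981) differed between Era+VK and Era, 0.134% (16) higher and 0.484% (58) lower in Era+VK. The calls that were higher made up 21.6% of these, and 11% of the 118 calls after the libraries were rescaled by median ratios. With no minimum level, 1 of 31325 genes passed (0.00319%) and 8.8% had an unadjusted p under 0.05.

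Of 12 RPE markers, 11 were listed, and 6 of them (PMEL, MITF, OTX2, KRT8, KRT18 and TJP1) were at 1 FPKM or more in every library. RPE65, the isomerase of the visual cycle, was at 0.02 FPKM or less in every library and RLBP1, a carrier of the visual cycle, at 0.29 FPKM or less. BEST1, a chloride channel of the RPE, was at 0.60 to 56.98 FPKM. A pair of libraries stood apart. The summed level of 12 erythroid markers was 239 FPKM in Era+VK replicate 2 and 232 FPKM in Era+VK replicate 3, against 0.21 FPKM or less in the other 4 libraries. Results that rest on this pair are therefore given with and without it.

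The promoters of ABCA1, APOE and APOC1 are shown because ABCA1 is the best known LXR target among the members and because APOE and APOC1, which neighbour each other on chromosome 19, were the members with the largest differences between libraries. Each line gives the 250 bases before the RefSeq start on GRCh38.p14, 5′ to 3′ on the strand of the gene. ABCA1 was read from chr9:104928156-104928405 on the minus strand, the first of the APOE promoters from chr19:44905546-44905795 and APOC1 from chr19:44914422-44914671, both on the plus strand. Capitals mark the closest match to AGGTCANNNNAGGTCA, the direct repeat with a spacer of 4 bases that LXR and RXR bind, where at most 3 of its 12 fixed bases differed on either strand.
ABCA1: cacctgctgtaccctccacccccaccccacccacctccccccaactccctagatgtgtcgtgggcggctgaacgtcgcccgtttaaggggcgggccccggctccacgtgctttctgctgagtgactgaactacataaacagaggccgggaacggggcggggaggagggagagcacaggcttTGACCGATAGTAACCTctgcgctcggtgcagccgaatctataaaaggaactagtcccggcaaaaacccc
APOE: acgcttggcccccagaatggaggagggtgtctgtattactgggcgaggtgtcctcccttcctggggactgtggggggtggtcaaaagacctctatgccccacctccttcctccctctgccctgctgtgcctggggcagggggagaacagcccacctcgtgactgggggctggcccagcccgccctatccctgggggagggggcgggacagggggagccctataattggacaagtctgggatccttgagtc
APOC1: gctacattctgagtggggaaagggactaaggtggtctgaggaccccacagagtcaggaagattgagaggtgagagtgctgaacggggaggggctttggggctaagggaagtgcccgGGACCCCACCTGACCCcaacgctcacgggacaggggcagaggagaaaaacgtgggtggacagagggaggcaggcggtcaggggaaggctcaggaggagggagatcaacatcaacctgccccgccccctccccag
In the ABCA1 promoter the match lies on the opposite strand, 69 to 54 bases before the start, where it reads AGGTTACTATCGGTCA with 2 mismatches. In the APOC1 promoter it lies 134 to 119 bases before the start, also on the opposite strand, with 3 mismatches. The closest match in the APOE promoter had 4 mismatches and is not in capitals. Among 35116 RefSeq promoters of this length, 2.03% held a match with at most 2 mismatches and 16% with at most 3. The table of promoters had 11 entries for 6 of the 7 members. The members without a match in these windows were NR1H2, NR1H3, APOE and MYLIP, and ABCG1 was not searched.

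Neither receptor passed the test. NR1H2 (ENSG00000131408, LXR-beta), the form that most tissues express, lies on chromosome 19 from 50329653 to 50382982 in GENCODE 29 (GRCh38). Its level was 13.75, 13.08 and 12.24 FPKM in Era replicates 1, 2 and 3. In Era+VK replicates 1, 2 and 3 it was at 13.33, 14.70 and 13.39 FPKM. The groups overlapped, and Era+VK replicate 2 was the highest library. The mean ± SD (n = 3) was 13.0 ± 0.757 FPKM in Era, against 13.8 ± 0.774 FPKM in Era+VK. The log2 fold change was 0.08 (SE 0.06, 95% interval -0.06 to 0.22, limma adjusted p = 0.555), and the two-sided exact permutation test gave p = 0.4, where 0.1 is the smallest p that 3 libraries against 3 allow.

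NR1H3 (ENSG00000025434, LXR-alpha), the form typical of liver, fat and macrophages, lies on chromosome 11 from 47248300 to 47269032. The libraries gave 1.63, 1.19 and 1.62 FPKM in Era, and 1.26, 1.31 and 1.27 FPKM with VK1, in the order of the replicates. Era replicate 2 was the lowest library, so the groups overlapped, while the Era+VK libraries lay close together. The means were 1.48 ± 0.251 FPKM (SD, n = 3) and 1.28 ± 0.0265 FPKM (SD, n = 3), and the log2 fold change was -0.12 (SE 0.09, 95% interval -0.32 to 0.09, limma adjusted p = 0.555, exact permutation p = 0.4). NR1H3 shares 189 bases (4.17%) of its exons with ACP2 on the opposite strand, which was at 12.54 to 15.11 FPKM. The sources used here do not say whether the counting used strand, so the level of NR1H3 is less certain than that of NR1H2.

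Within each library the ratio of NR1H2 to NR1H3 does not depend on how the library was scaled. It was 8.44, 11 and 7.56 in Era and 10.6, 11.2 and 10.5 in Era+VK. NR1H2 was thus the more abundant receptor by 7.56 to 11.2 times in every library. The mean ratio ± SD (n = 3) was 8.99 ± 1.78 without and 10.8 ± 0.381 with VK1, and the groups overlapped. The difference was 0.28 on the log2 scale (exact permutation p = 0.3, adjusted p = 0.3 over the 2 ratios compared).

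**Figure D1:**
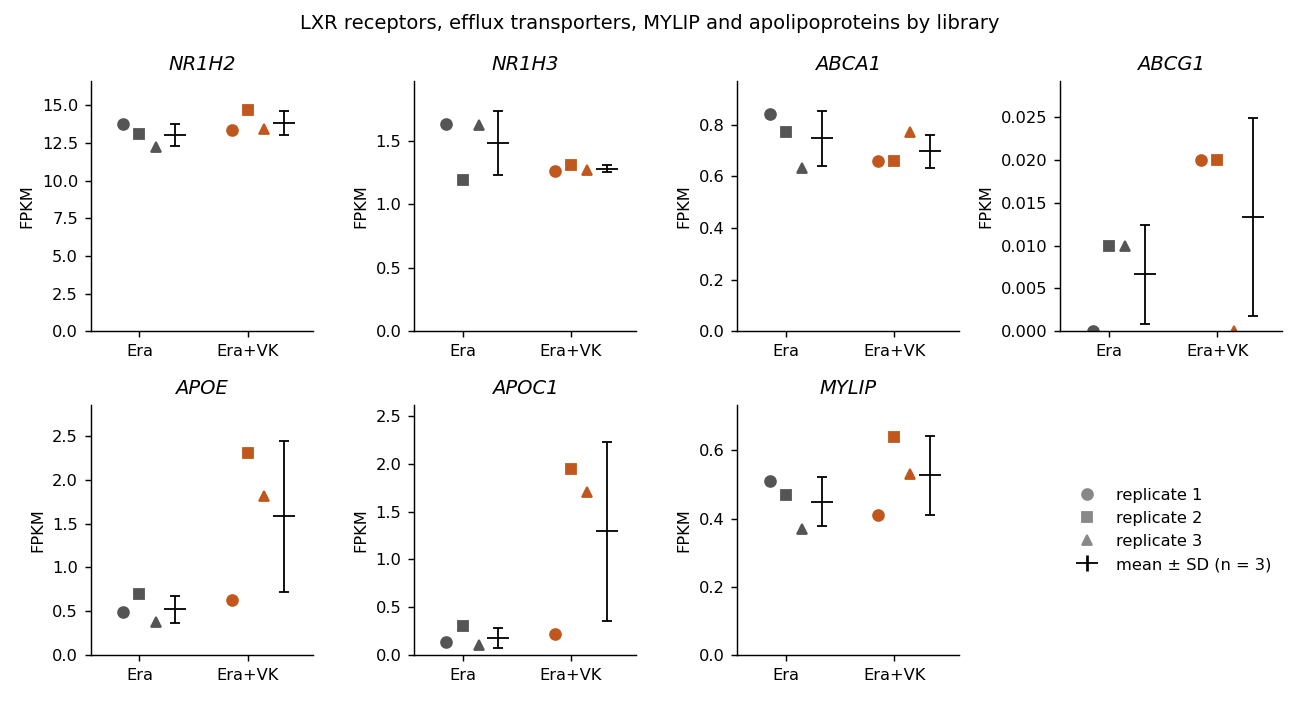
FPKM of the 7 genes in each library, 1 panel per gene with its own linear axis from 0. Symbols mark the replicate number, and the bar beside each group is the mean ± SD (n = 3). In the panels of APOE and APOC1, Era+VK replicates 2 and 3 lie above the other 4 libraries, while the groups of every gene overlap.

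The transporters were low. ABCA1 (ENSG00000165029), which moves cholesterol and phospholipid across the plasma membrane to lipid-poor apolipoprotein A-I, lies on the minus strand of chromosome 9 from 104781002 to 104928237. Its level was 0.84, 0.77 and 0.63 FPKM in Era, and 0.66, 0.66 and 0.77 FPKM with VK1. Its libraries spanned 1.33-fold in all, and both ends of that range were Era libraries. The mean ± SD (n = 3) was 0.747 ± 0.107 FPKM in Era, against 0.697 ± 0.0635 FPKM in Era+VK. The log2 fold change was -0.04 (exact permutation p = 0.7). ABCA1 is under the 1 FPKM minimum. With no minimum, the 95% interval of its log2 fold change was -0.24 to 0.16 (limma adjusted p = 0.888 over 31325 genes).

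ABCG1 (ENSG00000160179), which passes cholesterol on to mature high-density lipoprotein, lies on chromosome 21 from 42199689 to 42297244. It was listed at 0, 0.01 and 0.01 FPKM in Era and at 0.02, 0.02 and 0 FPKM in Era+VK. The values are at the last decimal of the deposited files, and no fold is given for them. Of the 33496 listed genes, 17.5% had a lower mean than ABCG1, against 61.9% for ABCA1.

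MYLIP (ENSG00000007944, also called IDOL), the ligase that marks certain lipoprotein receptors for degradation, lies on chromosome 6 from 16129125 to 16148248. Its level was 0.51, 0.47 and 0.37 FPKM in Era, and 0.41, 0.64 and 0.53 FPKM with VK1. The 2 highest libraries were Era+VK replicates 2 and 3, but Era+VK replicate 1 was below Era replicates 1 and 2, and the groups overlapped. The means were 0.45 ± 0.0721 FPKM (SD, n = 3) and 0.527 ± 0.115 FPKM (SD, n = 3), and the log2 fold change was 0.07 (exact permutation p = 0.4). Without a minimum level, its 95% interval was -0.13 to 0.27 (limma adjusted p = 0.792). Without Era+VK replicates 2 and 3 the log2 fold change was -0.04, against 1 remaining Era+VK library.

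The apolipoproteins differed most between libraries, and they did so in the same pair. APOE (ENSG00000130203), the ligand by which lipoproteins are taken up through their receptors, lies on chromosome 19 from 44905754 to 44909393. The Era replicates 1, 2 and 3 held 0.49, 0.69 and 0.38 FPKM. In Era+VK it was at 0.63 FPKM in replicate 1, 2.31 FPKM in replicate 2 and 1.81 FPKM in replicate 3. Era+VK replicate 1 lay inside the range of the Era libraries, so the groups overlapped, while replicates 2 and 3 were 3.35 and 2.62 times the highest of the other 4 libraries. The mean ± SD (n = 3) was 0.52 ± 0.157 FPKM in Era, against 1.58 ± 0.863 FPKM in Era+VK, a ratio of 3.04.

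The log2 fold change of APOE was 0.71 (SE 0.24, 95% interval 0.15 to 1.27). It did not pass the test (limma p = 0.0194, adjusted p = 0.224, exact permutation p = 0.2), and 15.8% of all genes tested had an unadjusted p under 0.05. APOE reached the minimum level, with a mean of 1.05 FPKM, only through Era+VK replicates 2 and 3: the mean of the other 4 libraries was 0.547 FPKM. Without that pair its log2 fold change was 0.11 (limma adjusted p = 0.749), with 1 Era+VK library assumed to vary like the Era libraries. Without Era+VK replicate 1 instead, it was 1.01 (SE 0.12, limma adjusted p = 0.0193), the only setting under which a member passed the test. The Era+VK group was then that pair alone, the libraries in which APOE was raised.

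APOC1 (ENSG00000130208), a small apolipoprotein of triglyceride-rich and high-density particles, lies on chromosome 19 from 44914247 to 44919349, next to APOE on the same strand. The Era libraries held 0.13, 0.30 and 0.10 FPKM. In Era+VK it was at 0.22 FPKM in replicate 1, 1.95 FPKM in replicate 2 and 1.71 FPKM in replicate 3. As for APOE, replicate 1 lay inside the range of Era, and the other Era+VK libraries were 6.5 and 5.7 times the highest of the remaining 4. The mean ± SD (n = 3) was 0.177 ± 0.108 FPKM in Era, against 1.29 ± 0.937 FPKM in Era+VK, a ratio of 7.32. The log2 fold change was 0.86, and the exact permutation test gave p = 0.2. With a mean of 0.735 FPKM APOC1 is under the minimum, and with no minimum its limma adjusted p was 0.553 (unadjusted p = 0.0422, 95% interval 0.04 to 1.69). Without Era+VK replicates 2 and 3 its log2 fold change was 0.06. APOC1 shares 532 bases (43.2%) of its exons with AC011481.3, a transcript model on the same strand that was at 0.01 to 0.02 FPKM.

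The apolipoproteins differed from each other in how far the pair stood above the rest. Against its mean in the other 4 libraries, the mean of Era+VK replicates 2 and 3 was 3.76-fold higher for APOE (2.06 against 0.547 FPKM) and 9.76-fold higher for APOC1 (1.83 against 0.188 FPKM). Above the mean of the other 4 libraries, APOE was higher by 1.76 FPKM in Era+VK replicate 2 and by 1.26 FPKM in replicate 3. The same excess for APOC1 was 1.76 and 1.52 FPKM. The ratio of APOC1 to APOE was 0.265, 0.435 and 0.263 in Era and 0.349, 0.844 and 0.945 in Era+VK, highest in the same pair. Its log2 difference between groups was 1.07 (exact permutation p = 0.2, adjusted p = 0.3 over 2 ratios), and it was 0.16 without Era+VK replicates 2 and 3.

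Markers of other cell types were read beside these values. Of the 12 erythroid markers, 10 were raised in Era+VK replicates 2 and 3, by at least 2-fold over the highest of the other 4 libraries and to at least 0.5 FPKM. They included HBG2, HBE1 and GATA1, the erythroid transcription factor, which was at 0 in the other 4 libraries and at 2.35 and 2.27 FPKM in the pair. HBB, at 0.04 FPKM or less, was not raised. The same limits, chosen after the values were seen, were passed by 59 of the 33496 genes (0.176%). APOE and APOC1 were among them, the other 5 members were not, and 16 of the 59 genes were at the minimum level or above. APOC2, a further apolipoprotein gene of the same cluster, was at 0.11 to 0.46 FPKM and was not raised in the pair.

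The summed level of 10 macrophage markers was 2.13, 0.62 and 0.87 FPKM in Era and 0.74, 1.34 and 1.26 FPKM in Era+VK, with none of the 10 at 1 FPKM in every library and 4 at 0.1 FPKM or less throughout. The summed level of 5 endothelial markers was 0.63 to 1.07 FPKM in Era and 0.69 to 0.96 FPKM in Era+VK. Of 6 hepatocyte markers 3 were listed, with a sum of 0.97 to 1.09 FPKM in Era and 0.97 to 1.30 FPKM in Era+VK. SERPINA1, at 0.94 to 1.30 FPKM, made up nearly all of that sum, with ALB at 0.03 FPKM or less and TF at 0. The erythroid sum was highest in the libraries with the highest APOE and APOC1, while the macrophage sum was highest in Era replicate 1. Single macrophage markers did not all follow that sum. CSF1R (0.69 FPKM) and TYROBP (0.71 FPKM) were highest in Era replicate 1. AIF1 (0.30 and 0.25 FPKM) and LYZ (0.12 and 0.09 FPKM) were highest in Era+VK replicates 2 and 3. The part of the erythroid transcripts in the values of APOE and APOC1 was not tested. In bulk RNA, a change in the number of cells of a type and a change in RNA per cell cannot be told apart.

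**Figure D2:**
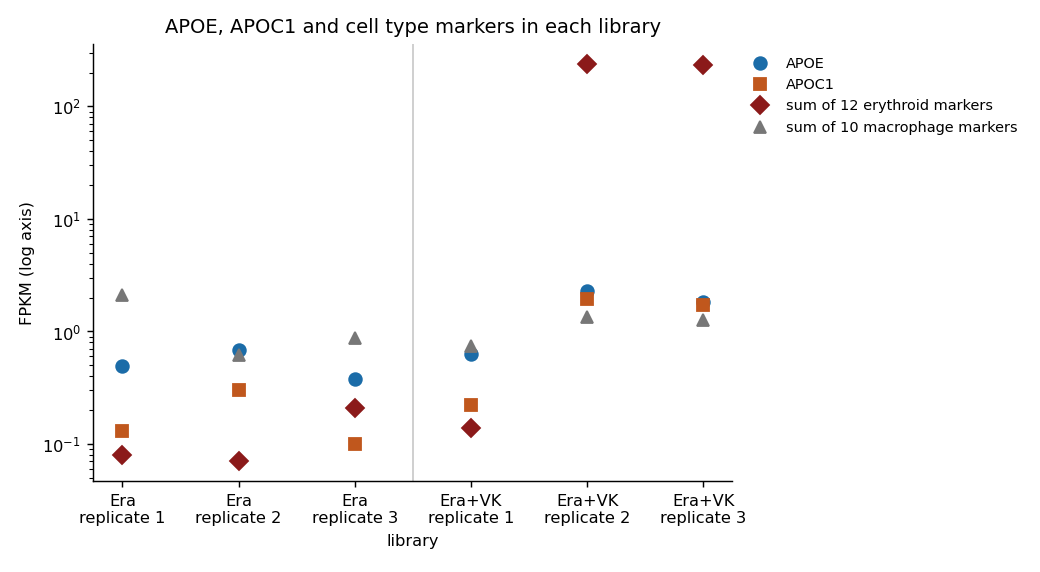
FPKM of APOE and APOC1 and the summed FPKM of 12 erythroid and 10 macrophage markers in each of the 6 libraries, on a log axis. Era+VK replicates 2 and 3 hold the highest APOE and APOC1 and erythroid sums of 239 and 232 FPKM, and Era+VK replicate 1 lies with the Era libraries.

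Ordered by mean level over the 6 libraries, in FPKM, NR1H2 was first, followed by NR1H3, APOE, APOC1, ABCA1, MYLIP and ABCG1. NR1H2 was above NR1H3, and MYLIP above ABCG1, in 6 of 6 libraries without any overlap of their ranges. NR1H3 was above APOE in 4 of 6 libraries, including every Era library. APOE was above APOC1, and ABCA1 above MYLIP, in 6 of 6 libraries, although their ranges overlapped. APOC1 was above ABCA1 in 2 of 6 libraries only, Era+VK replicates 2 and 3, so the order of these neighbours was reversed in every Era library. The places of APOE and APOC1 rest on that pair: by the mean of the Era libraries the order after NR1H3 was ABCA1 (0.747 FPKM), APOE (0.52), MYLIP (0.45), APOC1 (0.177) and ABCG1, and by the mean of the Era+VK libraries APOE (1.58 FPKM) and APOC1 (1.29) came before NR1H3 (1.28). Among the genes tested, 75.1% had a lower mean than NR1H2, 7.19% a lower mean than NR1H3 and 1.23% a lower mean than APOE.

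Of the 7 members, 3 were tested (NR1H2, NR1H3 and APOE), 4 were under the minimum and 0 of 3 passed limma at an adjusted p under 0.05, beside 0.618% of all genes tested. Among the 3, APOE had an unadjusted p under 0.05, and it was tested only because Era+VK replicates 2 and 3 lifted its mean past the minimum. Groups did not overlap for 22.1% of all genes tested (15.1% higher and 7.04% lower in Era+VK) and for none of the 7 members. By likeness of log2(FPKM + 1) over the 6 libraries, the closest tested genes to NR1H2 were TTC5 (Pearson r = 0.994), TOMM70 (0.992) and CD151 (0.982). For NR1H3 they were OTUB1 (0.986), ZNF132 (0.986) and GYG1 (0.980). For APOE they were TUBB (0.996), ENSG00000173727 (0.990) and RIPK1 (0.988). These are the highest of 11981 genes over 6 libraries that share their scaling, and they are given as a description. The genes named for APOE were each highest in Era+VK replicates 2 and 3, as APOE was. TUBB was at 397.69 and 388.81 FPKM there, against 361.01 to 370.06 FPKM in the other 4 libraries. Their likeness to APOE without that pair was not computed.

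**Figure D3:**
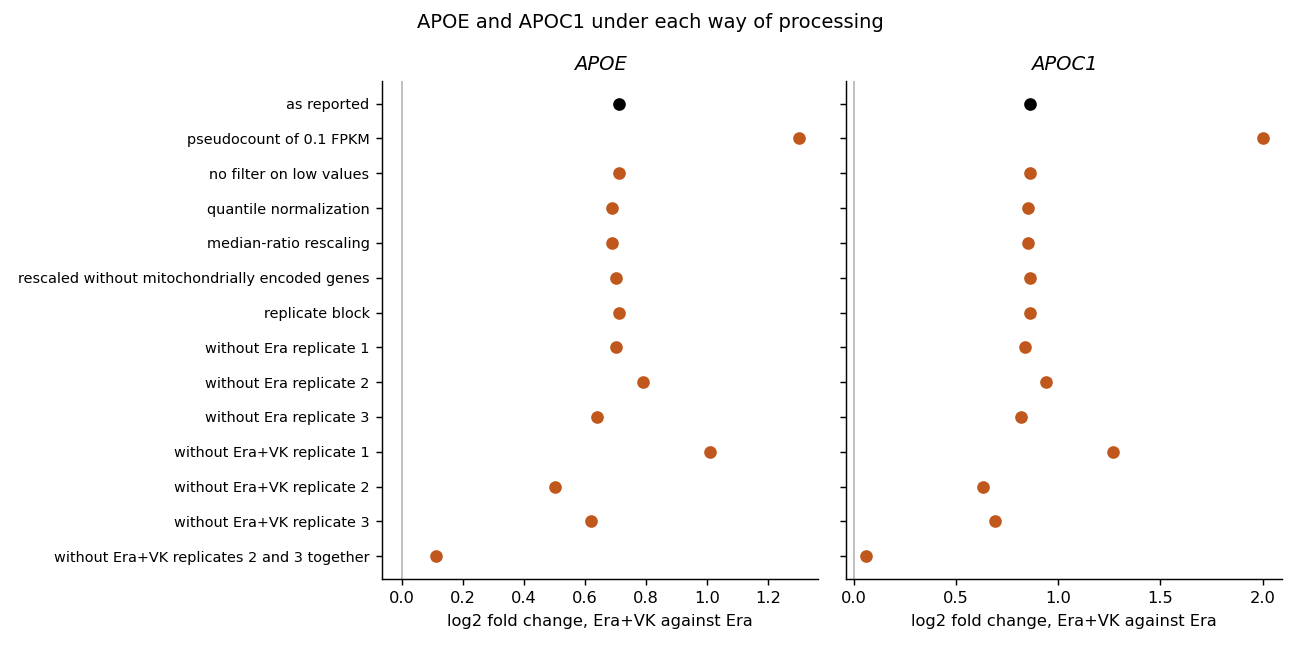
Log2 fold change of APOE (left) and APOC1 (right), Era+VK against Era, under each way of processing. The points fall from 0.71 to 0.11 for APOE and from 0.86 to 0.06 for APOC1 when Era+VK replicates 2 and 3 are left out together.

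Genes around the members were taken from 8 lists with 90 genes, of which 79 were listed and 55 were tested. None passed limma at an adjusted p under 0.05 (smallest adjusted p = 0.0972), and 12 had an unadjusted p under 0.05, 8 higher and 4 lower in Era+VK (21.8%, beside 15.8% of all genes tested). Groups did not overlap for 14 of the 55 (25.5%, beside 22.1%), 9 higher and 5 lower. The median log2 fold change was 0.02, and it was 0.03 over all genes tested. None of the 79 was raised in Era+VK replicates 2 and 3 by the limits above. Values are given below for tested genes whose groups did not overlap, at most 3 of each list, and for some other genes of the lists.

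Most partners and coregulators of LXR were well above the minimum level. Of 13 listed genes 12 were tested, 0 passed limma, 0 had an unadjusted p under 0.05, and the median log2 fold change was 0.02 (range -0.04 to 0.21). RXRA was at 4.46 to 5.24 FPKM and RXRB at 14.71 to 16.87 FPKM, and both are receptors that pair with LXR. RXRG, a further partner, was not analysed here. The corepressor NCOR1 was at 7.48 to 8.26 FPKM. No gene of this list had groups that did not overlap. Of 7 oxysterol enzymes, which make or break down LXR ligands, 1 was tested: HSD3B7 was at 5.83 to 7.68 FPKM with a log2 fold change of 0.01. CH25H, which makes 25-hydroxycholesterol, was at 0.05 FPKM or less and CYP27A1 at 0.33 to 0.68 FPKM. CYP46A1 was at 0.31, 0.26 and 0.27 FPKM in Era and at 0.50, 0.34 and 0.46 FPKM in Era+VK. Its groups did not overlap, but it was under the minimum and was not tested.

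Other LXR targets were described by 14 listed genes, of which 7 were tested, 0 passed limma (3 at an unadjusted p under 0.05, 1 higher and 2 lower), and 6 of the 7 had a lower mean in Era+VK (median log2 fold change -0.12, range -0.23 to 0.23). Over all genes tested, 4403 of 11981 had a lower mean in Era+VK. PLTP, which transfers phospholipid between lipoproteins, was at 5.75, 5.78 and 6.08 FPKM in Era and at 4.61, 5.06 and 4.88 FPKM in Era+VK. Every Era+VK library was below every Era library, with a log2 fold change of -0.23 (SE 0.05, limma adjusted p = 0.105). SREBF1, the regulator of fatty acid synthesis that LXR induces, was at 9.05, 8.78 and 9.71 FPKM in Era and at 8.20, 7.03 and 8.77 FPKM in Era+VK. The nearest libraries of the groups were at 8.78 and 8.77 FPKM (log2 fold change -0.18, SE 0.08, limma adjusted p = 0.315). LPCAT3, which places polyunsaturated fatty acids in phospholipids, lay the other way, at 3.51, 2.52 and 2.78 FPKM in Era and at 3.52, 3.58 and 3.64 FPKM in Era+VK (log2 fold change 0.23, SE 0.09, limma adjusted p = 0.292). SCD and FASN, at 81.37 to 116.64 and 35.47 to 48.19 FPKM, had groups that overlapped.

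Among 9 listed genes of efflux and lipoprotein assembly, 5 were tested, 0 passed limma (1 at an unadjusted p under 0.05) and the median log2 fold change was 0.15 (range -0.04 to 0.28). CLU, or clusterin, an apolipoprotein of high-density particles and an extracellular chaperone, was at 15.3 ± 0.726 FPKM in Era and at 18.7 ± 1.21 FPKM in Era+VK (mean ± SD, n = 3). Every Era+VK library was above every Era library, and the log2 fold change of 0.28 (SE 0.06, limma adjusted p = 0.0972) had the smallest adjusted p of the 55. Its lowest library, at 14.44 FPKM, was above the highest of APOE, at 2.31 FPKM. ABCA7, the closest relative of ABCA1, was at 1.92, 1.83 and 1.86 FPKM in Era and at 2.24, 1.96 and 2.58 FPKM in Era+VK (log2 fold change 0.18, SE 0.08, limma adjusted p = 0.328). SCARB1, the receptor for high-density lipoprotein, was at 6.42 to 7.31 FPKM with groups that overlapped.

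The targets of MYLIP and the receptors of apolipoprotein E had 11 listed genes, of which 8 were tested, 0 passed limma (1 at an unadjusted p under 0.05) and 6 had a lower mean in Era+VK (median log2 fold change -0.04, range -0.13 to 0.33). The count of lower means over all genes tested was 4403 of 11981. SORL1, a sorting receptor that binds apolipoprotein E, was at 1.77, 1.63 and 1.40 FPKM in Era and at 2.37, 2.20 and 2.19 FPKM in Era+VK. The groups did not overlap, with the largest log2 fold change of the 55 genes, 0.33 (SE 0.07, limma adjusted p = 0.108). VLDLR, a MYLIP target, had 8.02 ± 0.183 FPKM in Era against 7.67 ± 0.0777 FPKM in Era+VK (mean ± SD, n = 3), with every Era+VK library below every Era library (log2 fold change -0.06, SE 0.04, limma adjusted p = 0.56). LRP1, a large receptor that takes up apolipoprotein E, was at 91.20 to 120.10 FPKM, and its groups overlapped.

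Intracellular sterol transport and storage had 14 listed genes, of which 11 were tested and 0 passed limma (5 at an unadjusted p under 0.05, 3 higher and 2 lower), with a median log2 fold change of 0.06 (range -0.27 to 0.22). PLIN2, the coat protein of lipid droplets, was at 29.22, 30.57 and 28.45 FPKM in Era and at 24.73, 25.88 and 22.06 FPKM in Era+VK, without overlap (log2 fold change -0.27, SE 0.06, limma adjusted p = 0.117). STARD4, a cytosolic cholesterol carrier, had 6.96 ± 0.445 FPKM in Era against 8.25 ± 0.638 FPKM in Era+VK (mean ± SD, n = 3, log2 fold change 0.22, limma adjusted p = 0.201). GRAMD1A, which carries cholesterol from the plasma membrane to the endoplasmic reticulum, was at 8.17 ± 0.142 and 9.16 ± 0.695 FPKM (SD, n = 3 each), with a log2 fold change of 0.15 (limma adjusted p = 0.286). For both genes every Era+VK library was above every Era library.

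Sterol sensing by SREBP, the arm that raises cholesterol synthesis and uptake when sterols are low, had 7 genes, all tested, with 0 past the threshold in limma (2 at an unadjusted p under 0.05, both higher) and a median log2 fold change of 0.08 (range -0.08 to 0.22). SCAP, the escort of SREBP, was at 16.02, 14.96 and 15.40 FPKM in Era and at 17.02, 17.01 and 17.19 FPKM in Era+VK (log2 fold change 0.14, SE 0.04, limma adjusted p = 0.2). MBTPS1, the protease that makes the first cut of SREBP, had 22.3 ± 0.221 FPKM in Era against 23.6 ± 0.671 FPKM in Era+VK (mean ± SD, n = 3, log2 fold change 0.08, limma adjusted p = 0.41). Every Era+VK library was above every Era library for both genes. The neighbours of APOE on chromosome 19 had 4 tested genes, of which 0 passed limma and 0 had an unadjusted p under 0.05, with log2 fold changes of 0.08 for NECTIN2, -0.12 for TOMM40, -0.02 for CLPTM1 and 0.02 for BCAM. Their groups overlapped and none was raised in Era+VK replicates 2 and 3.

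**Figure D4:**
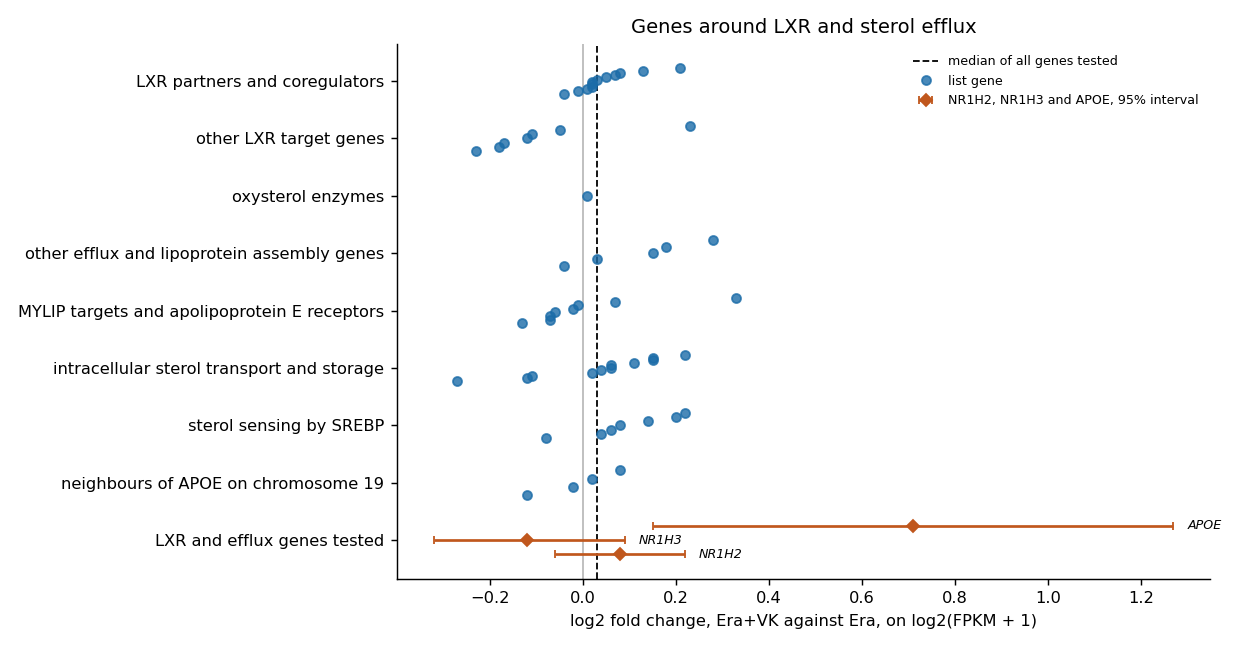
Log2 fold change, Era+VK against Era on log2(FPKM + 1), of the 55 tested list genes (points, 1 row per list) and of NR1H2, NR1H3 and APOE (diamonds with 95% intervals). The list genes lie between -0.27 and 0.33, the dashed line is the median of all genes tested (0.03), and the interval of APOE, 0.15 to 1.27, rests on Era+VK replicates 2 and 3, without which its log2 fold change was 0.11.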

How the data were processed

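Groups are from the titles, and doses are from the study's methods. The cell line field counts up from ARPE-19 across libraries, but every title names ARPE-19 and all were taken as that line. Poly(A) or ribosomal selection and the strandedness of the libraries are not given in the sources used here. The authors deposited FPKM values per gene for 6 libraries, made with cutadapt, HISAT2 and StringTie 2.1.6 according to the submitters' processing notes. Those notes name the mouse build mm10, although the gene identifiers are human Ensembl identifiers, so gene positions were matched by identifier to GENCODE 29 (GRCh38).

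FPKM of 3 Era and 3 Era+VK libraries were compared from the deposited values. The low values showed no steps of whole reads (concentration 0.33 to 0.362, against 0.964 or more for simulated whole reads), so the depth is unknown, no count model was used and no counting error is given. Genes with a mean of 1 FPKM or more were fitted in R 4.3.3 with limma 3.58.1 (trended empirical Bayes) on log2(FPKM + 1), without a term for the replicate number, and adjusted by Benjamini-Hochberg. Single values were compared by exact permutation tests in scipy 1.17.1, two-sided. In simulated data of Era+VK against Era over 11981 genes, limma recovered 155 of 200 genes changed by 0.5 on the log2 scale with 5 false calls, and 193 of 200 changed by 1 with 11 false calls.

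The members, the 8 lists and the markers were chosen with earlier results of these data known. The genes named are the members, from each list any gene past the threshold and the 3 tested genes with the largest change among those whose groups did not overlap, and the 3 genes most alike each tested member. Partners, ligand enzymes, other targets, receptors, neighbours and markers named beside these were picked after their values were seen. Of the 90 list genes, 11 were not analysed here. Alternatives were another pseudocount, other filters and scalings, the replicate number as a block, and libraries left out. The values of some genes of the lists and markers are not reported here.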

Additional observations from a re-analysis of the deposited data

How the results depend on the processing

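Without Era+VK replicate 1, APOE passed the test (1 member instead of 0, log2 fold change 1.01), and under all other settings 0 of the members tested passed. That setting keeps only Era+VK replicates 2 and 3, the libraries in which APOE was raised, so the pass restates that difference. Each library left out in turn gave log2 fold changes of 0.50 to 1.01 for APOE, 0.63 to 1.27 for APOC1, 0.04 to 0.12 for NR1H2, -0.20 to -0.07 for NR1H3, 0.80 to 1.52 for the ratio of APOC1 to APOE and 0.16 to 0.43 for that of NR1H2 to NR1H3. No list gene passed under any setting. With a pseudocount of 0.1 FPKM the log2 fold change was 2.0 for APOC1, 1.30 for APOE, 0.18 for MYLIP and 0.08 for ABCG1, since low values are compressed less. Without Era+VK replicates 2 and 3 it was 0.11 for APOE, 0.06 for APOC1 and -0.04 for MYLIP. APOE could not be tested with a minimum of 1 FPKM in every library. Its limma adjusted p lay between 0.0193 and 0.749 over the alternatives, that of NR1H2 between 0.499 and 0.856 and that of NR1H3 between 0.387 and 0.806.

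The number of genes called among all tested was 74 (21.6% higher in Era+VK). It was 1 with no filter, 122 with a minimum of 1 FPKM in every library (27% higher), 113 with quantile normalization (14.2% higher), 118 with median-ratio rescaling (11% higher), 35 without Era+VK replicates 2 and 3, and 2 to 70 with each library left out. It was 2, 2 and 5 without Era replicates 1, 2 and 3, 70 without Era+VK replicate 1 (42.9% higher), and 42 without Era+VK replicate 3. The cause was not tested. With the replicate number as a block it was 42, and no member passed (APOE log2 fold change 0.71, limma adjusted p = 0.199). Deviations of libraries with the same number correlated by 0.0709, 0.103 and 0.021, and those of libraries with different numbers by -0.114 to 0.0401. Deviations from the mean of only 3 libraries per group cannot decide whether the libraries were paired. The unknown depth leaves the counting error of values under 1 FPKM unknown.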

Other observations

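Genes other than globins were also raised in Era+VK replicates 2 and 3 and in neither the Era libraries nor Era+VK replicate 1, by the limits of 0.5 FPKM and 2-fold chosen after the values were seen. PRAME, a cancer-testis antigen, had a mean of 4.2 FPKM in the pair and at most 0.48 FPKM in the other 4 libraries. Other cancer-testis genes were raised there too, among them GAGE12G (8.66 FPKM) and GAGE2A (4.92 FPKM), both at 0 in the other 4 libraries. VAMP8, a vesicle fusion protein, had 4.44 against at most 1.7 FPKM. KCNH2, a potassium channel, had 1.47 against at most 0.01 FPKM, and MYL4, an embryonic myosin light chain, had 2.09 against at most 0.03 FPKM. By their mean in the pair, APOE and APOC1 were the 20th and 23rd of the 59 genes raised there.

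BEST1, named above among the RPE markers, was at 2.65, 0.65 and 56.98 FPKM in Era and at 36.45, 0.60 and 4.80 FPKM in Era+VK, a wide spread between libraries of a group.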
